A study of Mus musculus with 6 samples.

Results

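Horizontal cell genes of the mouse retina were examined here as a set of 6, taken by name from the gene column of the deposited count table: *Lhx1*, *Onecut1*, *Onecut2*, *Onecut3*, *Calb1* and *Prox1*. All 6 were found among the 31169 genes of the table, and all 6 passed the filter on low counts and were among the 17707 genes tested. Whole retina was sequenced from male C57BL/6 mice that were injected in the anterior chamber at 1 month of age and killed 4 weeks later, at 2 months. The microbead group (n = 3 libraries) received polystyrene beads of 15 μm diameter, which obstruct aqueous outflow and raise intraocular pressure (IOP). The saline group (n = 3 libraries) received saline and served as the control. No allele or transgene separates the groups, and both carried an injection, so that neither is an untouched retina. According to the paper both eyes were injected, and the sources used here do not tie each library to an animal. Libraries may therefore share an animal, and the p-values measure the spread between these libraries. The paper's legend for these data names more retinas per group than the libraries analysed here, and how they relate is not given in the sources used here. Below, a library is called a retina for short.

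Horizontal cells are inhibitory interneurons of the outer retina. They receive glutamate from cones and, at their axon terminals, from rods, and feed an inhibitory signal back to the photoreceptor terminals, while gap junctions couple them into a sheet. They are a small minority of retinal neurons. The LIM-homeodomain factor *Lhx1* places them in their layer, and the Onecut factors, which carry a cut domain and a divergent homeodomain, act in their formation and upkeep. *Prox1* is a homeodomain factor needed for horizontal cell formation, and *Calb1* encodes the calcium buffer calbindin, the usual antibody marker of these cells in the mouse. *Lhx1* is the member most restricted to horizontal cells in adult mouse retina. Onecut factors are also present in ganglion cells, *Calb1* in amacrine and ganglion cells, and *Prox1* in AII amacrine, bipolar and Müller cells, and outside the retina in lens.

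The members lie on separate chromosomes (GRCm38, GENCODE vM21). *Lhx1* (ENSMUSG00000018698.15) spans chr11:84518284-84525535 on the reverse strand, *Onecut1* (ENSMUSG00000043013.10) chr9:74861921-74891781 and *Onecut3* (ENSMUSG00000045518.8) chr10:80494835-80517276, both on the forward strand. *Calb1* (ENSMUSG00000028222.2) spans chr4:15881264-15908064 on the forward strand and *Prox1* (ENSMUSG00000010175.13) chr1:190118035-190170714 on the reverse strand.

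Promoter sequences from RefSeq (GRCm38.p6), running from 250 bases before the transcription start to 50 after it, are shown for 3 of the transcription factor genes, so that their start regions can be set beside one another. Capitals mark GGGCGG (GC box), CCAAT and TATAAA, searched on both strands.
Lhx1, chr11:84525485-84525784, reverse strand: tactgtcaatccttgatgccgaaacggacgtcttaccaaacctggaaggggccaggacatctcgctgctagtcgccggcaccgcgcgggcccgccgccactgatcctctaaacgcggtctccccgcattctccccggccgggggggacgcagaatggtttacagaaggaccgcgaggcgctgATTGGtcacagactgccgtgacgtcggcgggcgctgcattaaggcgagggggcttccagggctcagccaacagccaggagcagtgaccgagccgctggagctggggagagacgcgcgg
Onecut1, chr9:74861671-74861970, forward strand: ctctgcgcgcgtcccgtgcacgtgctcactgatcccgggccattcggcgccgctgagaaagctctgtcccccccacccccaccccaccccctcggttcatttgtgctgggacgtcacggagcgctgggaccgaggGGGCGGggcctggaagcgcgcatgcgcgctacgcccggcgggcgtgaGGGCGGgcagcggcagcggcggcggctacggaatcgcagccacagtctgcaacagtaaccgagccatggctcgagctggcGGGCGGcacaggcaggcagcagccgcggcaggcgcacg
Prox1, chr1:190170778-190171077, reverse strand: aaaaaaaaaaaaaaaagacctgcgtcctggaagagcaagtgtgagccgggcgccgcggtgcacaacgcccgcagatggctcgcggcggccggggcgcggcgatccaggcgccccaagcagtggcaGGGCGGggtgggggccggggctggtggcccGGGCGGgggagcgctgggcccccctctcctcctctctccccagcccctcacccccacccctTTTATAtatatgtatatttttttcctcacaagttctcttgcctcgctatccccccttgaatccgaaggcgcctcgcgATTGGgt
The *Onecut1* promoter holds 3 GC boxes, a motif found in 35.7% of the 32851 RefSeq promoters of this length. The *Lhx1* promoter holds 1 CCAAT, found in 37.4% of all promoters, and no GC box. The *Prox1* promoter shown holds 2 GC boxes, 1 CCAAT and 1 TATAAA, the last found in 13.6% of all promoters. A second RefSeq start of *Prox1* (chr1:190169466-190169765, not printed) holds 1 GC box, neither CCAAT nor TATAAA, and 57.33% GC. Neither ATCAAT nor ATCGAT, letters that Onecut factors are known to bind, occurs in these 3 windows. They occur in 7.54% and 0.925% of all promoters. The start regions of *Onecut2*, *Onecut3* and *Calb1* are not reported here. GC made up 65.67% of the bases for *Lhx1*, 73.0% for *Onecut1* and 64.33% for the *Prox1* window shown, against a median of 52.67% over all promoters.

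The saline libraries held 36085737 to 46481382 counts and the microbead libraries 13574949 to 19834366. A count of 3, taken as the detection limit, corresponded to at most 0.0856 CPM (counts per 1000000, on library sizes scaled by the TMM method) in the saline and at most 0.217 CPM in the microbead libraries, for counting error only. The saline library names carry one prefix and the microbead library names another, so that anything tied to the prefix cannot be told apart from the injection. The mitochondrial genome took 3.19% to 3.57% of the counts in saline and 8.90% to 10.6% in microbead libraries. The tissue was checked by rod genes, which stood at 59426 to 91848 CPM for a list of 10. In the saline group, replicate 3 held 366 CPM of 8 lens genes against at most 29.2 CPM in every other library, and replicate 1 held 386 CPM of 12 ganglion cell genes against at least 963 CPM in every other library.

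Of the 6 members, 1 fell past the threshold after microbead injection, *Onecut2*, and 0 rose (adjusted p under 0.05, edgeR's quasi-likelihood test). Among all tested genes 12.8% passed in either direction, 6.31% lower and 6.46% higher. DESeq2 called 2 members and limma-voom 1, against 20.2% and 12.5% of all tested genes. In 4 of the 6 fits that leave out a library, edgeR called 0 members. They were the fits without saline replicate 2 and without microbead replicate 1, 2 or 3. In that order, these fits called 1.68%, 3.89%, 4.01% and 0.238% of all tested genes. The log2 fold change was below 0 for all 6 members, as for 52.1% of tested genes, with a median of -0.79 against -0.03 over all tested genes. An unadjusted p under 0.05 was reached by 3 members (*Onecut2*, *Lhx1* and *Calb1*), all lower, against 16.2% of tested genes lower and 31.4% in either direction. The groups did not overlap for 2 members (*Lhx1* and *Onecut2*), both lower, against 18.9% of tested genes lower, 18.8% higher and 37.8% in either direction without overlap. In whole retina, fewer cells of a type and less RNA per cell cannot be told apart.

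**Figure D1:**
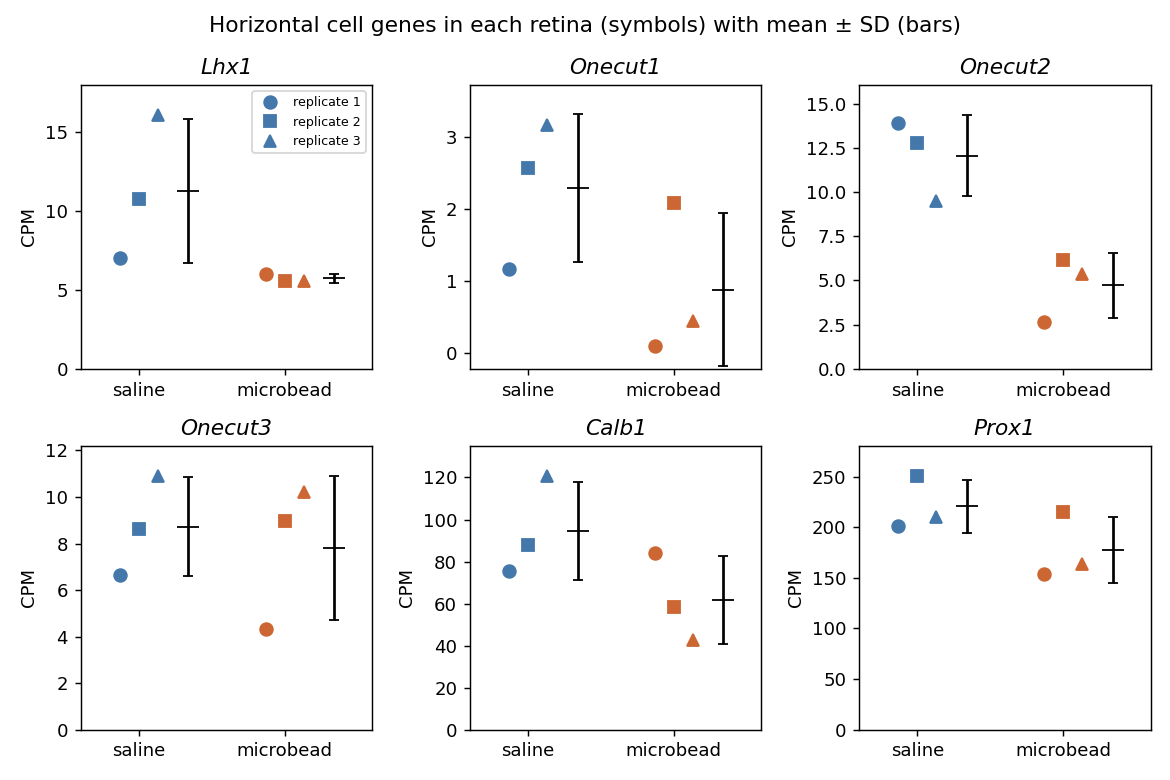
Level of each member in each of the 6 retinas, in CPM on a linear axis, with the symbol giving the replicate and the black bar the mean ± SD of the group (n = 3). Saline and microbead retinas are separated for *Lhx1* and *Onecut2* and overlap for the other 4 members.

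*Onecut2* (ENSMUSG00000045991.18, chr18:64340020-64400987, forward strand, GRCm38) is 1 of the 3 mammalian Onecut transcription factors. It was at 13.9, 12.8 and 9.50 CPM in the saline retinas (523, 616 and 333 counts) and at 2.62, 6.14 and 5.39 CPM in the microbead retinas (51, 85 and 83 counts). The lowest saline retina lay above the highest microbead retina, and microbead replicate 1 was the lowest of all. The means were 12.1 ± 2.28 and 4.72 ± 1.85 CPM (SD, n = 3 each). *Onecut2* fell by 1.36 on the log2 scale (standard error, SE, 0.34, edgeR adjusted p = 0.0335), a change of -61.1%, and 3.60% of tested genes had a lower value. The exact permutation test on its CPM gave p = 0.1, the smallest that 3 against 3 allows.

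The call for *Onecut2* was kept in 2 of the 6 fits that leave out a library. Leaving out saline replicate 2 gave an edgeR adjusted p of 0.103. Leaving out microbead replicates 1, 2 and 3 in turn gave 0.0624, 0.0567 and 0.109. Over all genes, 293, 748, 768 and 46 were past the threshold in these fits, in that order, against 2261 with all libraries. The log2 fold change of *Onecut2* ran from -1.57 to -1.07 over all 6 fits that leave out a library. The exons of *Onecut2* cover 16234 bases, more than in 98.2% of tested genes. Among the 1469 tested genes with at least 10 kb of exon, the median log2 fold change was -0.18, and 7.56% fell while 3.0% rose. With an offset for GC content and exon length, *Onecut2* was lower by a log2 value of -1.24 (SE 0.30, edgeR adjusted p = 0.0287).

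*Onecut1*, the founding member of the family and one with a known requirement in horizontal cell formation, was the least abundant. It was at 1.17, 2.57 and 3.17 CPM in saline (44, 124 and 111 counts) and at 0.103, 2.09 and 0.455 CPM in microbead retinas (2, 29 and 7 counts). Microbead replicate 2 lay within the saline range, while replicate 1, with 2 counts, lay under the detection limit of 0.154 CPM for that library. The log2 fold change was -1.42 (SE 0.83, edgeR adjusted p = 0.273), larger in size than that of *Onecut2* but with a larger error. It moved from -3.06 without microbead replicate 2 to -0.87 without microbead replicate 1, and was not past the threshold in any of these fits. In GENCODE vM21, 52.8% of the *Onecut1* exon bases are also exon of a lincRNA gene on the same strand, *Gm20649*, which has no row among the genes analysed here. How reads in these bases were counted is not given in the sources used here, so the level of *Onecut1* is uncertain.

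*Onecut3*, which is present in horizontal and ganglion cells, was at 6.67, 8.63 and 10.9 CPM in saline and at 4.32, 8.95 and 10.2 CPM in microbead retinas. Microbead replicates 2 and 3 lay inside the saline range and replicate 1 below it. The log2 fold change was -0.16 (SE 0.35, edgeR adjusted p = 0.787), and its sign turned without saline replicate 3 (0.03) and without microbead replicate 1 (0.13). The 3 paralogs therefore had values of -1.42, -1.36 and -0.16, and their pairwise differences were not tested. None of their 100-base stretches occurs in annotated transcripts of another locus, and of the 31-base stretches 0.564% of *Onecut1*, 0.377% of *Onecut2* and 2.87% of *Onecut3* do, so the paralogs can be told apart by sequence.

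*Lhx1*, the member most specific to horizontal cells, was at 6.99, 10.7 and 16.0 CPM in the saline retinas (263, 518 and 562 counts) and at 6.02, 5.56 and 5.59 CPM in the microbead retinas (117, 77 and 86 counts). The 3 microbead retinas were within 1.08-fold of each other, while the saline retinas spread over 2.30-fold and the lowest of them, replicate 1, lay just above the microbead range. The means were 11.3 ± 4.55 and 5.72 ± 0.259 CPM (SD, n = 3 each). The log2 fold change was -0.97 (SE 0.32), and the edgeR adjusted p of 0.0714 missed the threshold. It was -1.23 without saline replicate 1, where the adjusted p was 0.0193, and -0.63 without saline replicate 3, where it was 0.198. DESeq2 (adjusted p = 0.0339) and edgeR without a filter on low counts (adjusted p = 0.0207) placed *Lhx1* past the threshold, within a range of 0.0207 to 0.138 over the settings with all libraries. The neighbouring antisense gene *Lhx1os* was at 2.55, 2.43 and 2.51 CPM in saline and 3.40, 2.38 and 2.01 CPM in microbead retinas, a log2 fold change of 0.06 (SE 0.36, edgeR adjusted p = 0.926). No annotated gene overlaps *Lhx1* itself.

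*Calb1* was at 75.5, 87.8 and 121 CPM in saline and at 84.2, 58.6 and 42.6 CPM in microbead retinas. Microbead replicate 1 lay inside the saline range and the other 2 below it. The log2 fold change was -0.61 (SE 0.27, edgeR adjusted p = 0.154), and lay between -0.91 without microbead replicate 1 and -0.40 without saline replicate 3. It was past the threshold in 1 of the 9 settings with all libraries, the one without a filter on low counts (adjusted p = 0.0338 from edgeR).

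*Prox1*, the most abundant member, was at 201, 251 and 210 CPM in saline and at 154, 215 and 164 CPM in microbead retinas. Microbead replicate 2 lay above 2 of the saline retinas. The log2 fold change was -0.31 (SE 0.19, edgeR adjusted p = 0.288), with a range of -0.46 to -0.22 over the fits that leave out a library. *Prox1os*, on the opposite strand, shares 133 bases of exon with *Prox1*, 1.58% of its exon length. It was at 3.96 to 5.59 CPM in saline and 3.55 to 4.69 CPM in microbead retinas (log2 fold change -0.23, SE 0.30, edgeR adjusted p = 0.638). A further antisense gene in the *Prox1* span, *Gm28172*, shares no exon base and had a log2 fold change of 0.43 (SE 0.38, edgeR adjusted p = 0.477).

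Scaled to exon length, the members covered a wide range of levels. In saline retinas the mean was 26.3 ± 3.13 CPM per kb for *Prox1* and 19.5 ± 4.82 for *Calb1* (SD, n = 3 each), whose retinas overlapped. *Lhx1* followed at 2.76 ± 1.1 CPM per kb, *Onecut3* at 1.83 ± 0.443, *Onecut2* at 0.743 ± 0.141 and *Onecut1* at 0.560 ± 0.249 (SD, n = 3 each). The saline retinas of *Lhx1* and *Onecut3* overlapped, as did those of *Onecut2* and *Onecut1*, while *Calb1* lay above *Lhx1* and *Onecut3* above *Onecut2* in every saline retina. In microbead retinas the means were 21.2 ± 3.94 for *Prox1*, 12.8 ± 4.34 for *Calb1*, 1.64 ± 0.648 for *Onecut3*, 1.41 ± 0.0636 for *Lhx1*, 0.291 ± 0.114 for *Onecut2* and 0.215 ± 0.258 CPM per kb for *Onecut1* (SD, n = 3 each). The order of *Lhx1* and *Onecut3* was thus the reverse of that in saline, within overlapping ranges. The *Onecut1* values rest on the exon length of all its transcripts, part of which it shares with *Gm20649*.

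**Figure D2:**
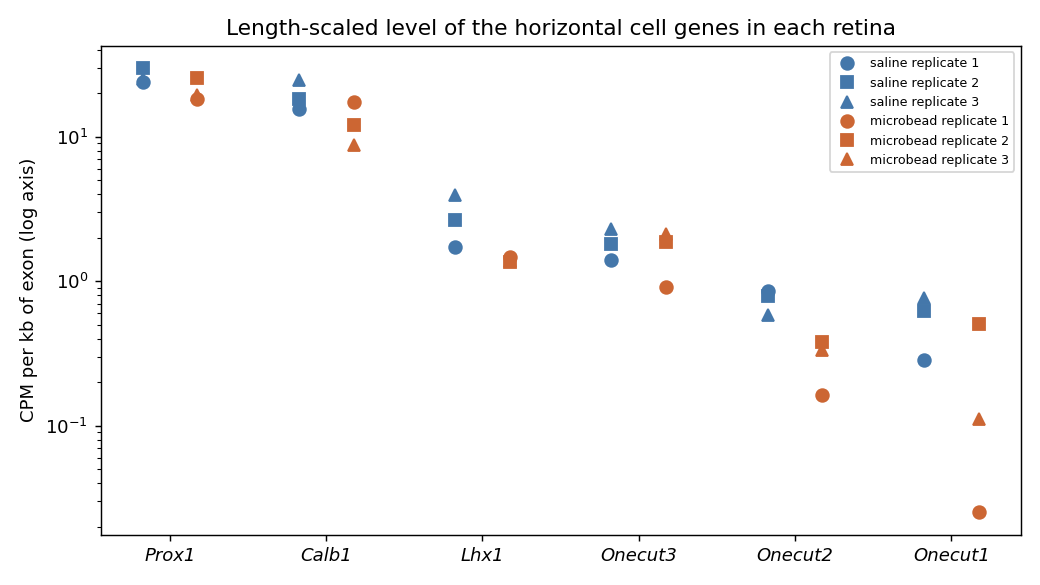
Level of each member in CPM per kb of exon, on a log axis, ordered by the saline mean, with each retina as a symbol. *Prox1* and *Calb1* lie near 10 to 30 CPM per kb in nearly all retinas, and the other 4 members lie below 4.

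The members did not share 1 pattern across retinas. Within the saline group, replicate 1 held the lowest value of 5 members and replicate 3 the highest of 4 (*Lhx1*, *Onecut1*, *Onecut3* and *Calb1*). *Onecut2* had the opposite order there, with its highest value in replicate 1 and its lowest in replicate 3. Within the microbead group, replicate 1 was lowest for *Onecut1*, *Onecut2*, *Onecut3* and *Prox1* but highest for *Lhx1* and *Calb1*. Likeness between 2 genes was measured as the root mean square difference of their log2 CPM over the 6 libraries, each gene centred on its own mean. By this measure *Lhx1* and *Calb1* were the closest pair of members, at 0.32, and *Onecut1* and *Calb1* the most distant, at 1.54. *Onecut3* and *Prox1* lay at 0.39 and *Onecut1* and *Onecut2* at 1.07.

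Outside the set, the 2 genes closest to each member were named among 15087 tested genes with a mean of at least 1 CPM. They were *Gnai1* (0.09) and *Nipa1* (0.11) for *Lhx1*, *Aass* (0.06) and *Fundc1* (0.08) for *Calb1*, and *Snx13* (0.05) and *Kbtbd3* (0.05) for *Prox1*. For *Onecut2* they were *RP24-175C20.19* (0.15) and *Zfp955a* (0.16), for *Onecut3* *Cage1* (0.07) and *Dopey2* (0.08), and for *Onecut1* *Samd12* (0.27) and *Crybg3* (0.27). *Gnai1*, a G protein alpha subunit, was at 23.8, 44.0 and 54.2 CPM in saline and 21.7, 20.9 and 20.0 CPM in microbead retinas, the same order of saline retinas as *Lhx1*. With 6 libraries and many genes, a close profile is a description only.

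Other genes known in horizontal cells were described from lists of related function. Among all tested genes, 6.31% fell, 6.46% rose, 52.1% had a log2 fold change below 0 and 31.4% had an unadjusted p under 0.05. In the list of gap junction, transmitter and mosaic genes, 1 of 6 tested members fell and 0 rose, all 6 had a log2 fold change below 0, and the median was -0.75. The gene that fell was *Megf10*, a transmembrane receptor that spaces horizontal cells and starburst amacrine cells into mosaics. *Megf10* was at 38.1, 41.1 and 56.7 CPM in saline and 20.7, 26.0 and 19.9 CPM in microbead retinas, without overlap. It fell by 1.03 on the log2 scale (SE 0.21, edgeR adjusted p = 0.0195), and the adjusted p rose to 0.0588, 0.0605 and 0.0995 when saline replicate 2, microbead replicate 1 or microbead replicate 3 was left out. Its partner in mosaic spacing, *Megf11*, was at 27.5, 45.9 and 57.7 CPM in saline and 23.8, 28.7 and 26.6 CPM in microbead retinas (log2 fold change -0.73, SE 0.26, edgeR adjusted p = 0.0895).

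*Gja10* encodes connexin 57, the gap junction protein that couples mouse horizontal cells. It was at 2.28, 3.01 and 4.19 CPM in saline and at 0.566, 2.38 and 1.36 CPM in microbead retinas, with microbead replicate 2 inside the saline range. Its log2 fold change was -1.15 (SE 0.53, edgeR adjusted p = 0.167). The transmitter genes *Slc32a1*, the vesicular GABA transporter, and *Gad1*, a GABA-synthesizing enzyme, which amacrine cells also express, had values of -0.68 (SE 0.24, edgeR adjusted p = 0.0829) and -0.78 (SE 0.25, edgeR adjusted p = 0.0720). *Megf11*, *Gja10*, *Slc32a1* and *Gad1* were described after their values were seen.

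Of the developmental factors, 5 of 7 were tested, 1 fell and 0 rose, and 4 had a log2 fold change above 0. Over all tested genes, 6.31% fell and 52.1% had a log2 fold change below 0. *Sall3*, a zinc-finger factor that acts in horizontal cell and cone differentiation, was at 11.9, 10.1 and 11.3 CPM in saline and at 5.20, 6.50 and 5.20 CPM in microbead retinas. Its groups were well apart, with means of 11.1 ± 0.928 and 5.63 ± 0.751 CPM (SD, n = 3 each). *Sall3* fell by 0.98 on the log2 scale (SE 0.24, edgeR adjusted p = 0.0300), and was past the threshold in 1 of the 6 fits that leave out a library, without saline replicate 1 (adjusted p = 0.0445), and otherwise between 0.0545 and 0.115. *Pax6*, which amacrine and ganglion cells also use, had a value of 0.58 (SE 0.18, edgeR adjusted p = 0.0640) and *Tfap2b* one of 0.17 (SE 0.19, edgeR adjusted p = 0.593), both named after their values were seen. *Foxn4* and *Ptf1a*, which act in progenitors, were at or below 0.145 CPM in every library and were not tested.

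Among 6 further genes whose expression marks horizontal cells, none passed the threshold (0 by edgeR, 2 with an unadjusted p under 0.05), with a median of -0.13. The shares over all tested genes were 12.8% past the threshold and 31.4% with an unadjusted p under 0.05. *Slc12a7*, a potassium-chloride cotransporter, had a value of -0.80 (SE 0.27, edgeR adjusted p = 0.0821) and *Mfge8*, a secreted glycoprotein also made by Müller glia, one of -0.46 (SE 0.19, edgeR adjusted p = 0.136). *Sept4*, a septin whose protein marks horizontal cells, was at 180, 201 and 244 CPM in saline and 259, 213 and 210 CPM in microbead retinas (0.13, SE 0.18, edgeR adjusted p = 0.667). It was described after its values were seen.

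The relatives of the members by family did not pass the threshold. Of the 5 calcium buffers related to *Calb1*, 0 passed by edgeR and 1 had an unadjusted p under 0.05, with a median of 0.06. *Pvalb* had a value of 0.73 (SE 0.25, edgeR adjusted p = 0.0798) and *Calb2*, calretinin, one of 0.44 (SE 0.38, edgeR adjusted p = 0.464). Of the 7 tested LIM-homeodomain and prospero relatives, 0 passed by edgeR, 0 had an unadjusted p under 0.05, and the median was 0.18. An unadjusted p under 0.05 was reached by 31.4% of all tested genes. The 2 with the greatest size were *Prox2* (0.50, SE 0.39, edgeR adjusted p = 0.415) and *Lhx9* (0.41, SE 0.25, edgeR adjusted p = 0.300). Over the 29 tested genes of these 5 lists together, 2 fell (*Sall3* and *Megf10*) and 0 rose, against 6.31% and 6.46% of all tested genes. The median of the 29 was -0.01. DESeq2 called 6 of the 29 and limma-voom 2, against 20.2% and 12.5% of all tested genes.

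**Figure D3:**
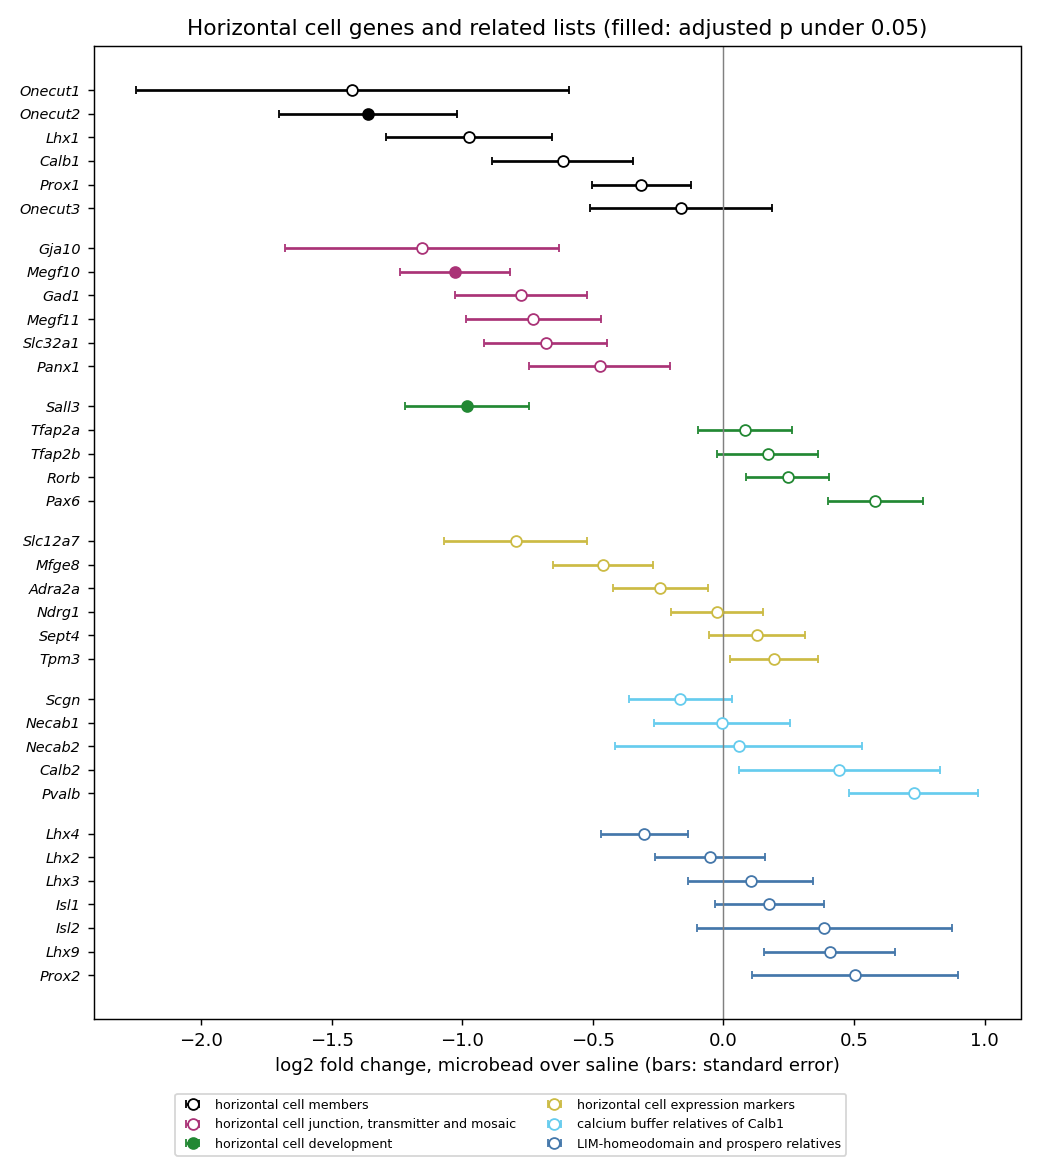
Log2 fold change, microbead over saline, of the members and of the 5 related lists, with the standard error as a bar and filled symbols for an adjusted p under 0.05. *Onecut2*, *Megf10* and *Sall3* are the filled symbols, and the symbols of all 6 members and of all 6 tested junction, transmitter and mosaic genes lie left of 0.

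Several of these genes are shared with other cell types, whose marker lists were summed in each library. Over all tested genes, 6.31% fell, 6.46% rose and 31.4% had an unadjusted p under 0.05. The 12 ganglion cell genes summed to 386, 1094 and 1403 CPM in saline and to 1279, 963 and 1180 CPM in microbead retinas, of which 0 passed the threshold of edgeR (1 with an unadjusted p under 0.05) and 8 had a log2 fold change above 0. Saline replicate 1 was the lowest of all 6 libraries for this list. For 5 of the 6 members it was the lowest within the saline group, but not over all libraries. The 12 amacrine genes summed to 1351 to 2636 CPM in saline and 1631 to 1931 CPM in microbead retinas, and 1 of them fell, *Gjd2*, connexin 36 of AII amacrine and other cells (105, 113 and 141 CPM against 81.2, 65.7 and 69.1 CPM). The 11 bipolar genes summed to 1430 to 1803 and 1321 to 1728 CPM, with 0 past the threshold of edgeR and 2 with an unadjusted p under 0.05.

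The 10 Müller glia genes summed to 5378 to 9174 CPM in saline and 4607 to 5571 CPM in microbead retinas, and 3 of them fell (*Sox9*, *Crym* and *Dkk3*, at -1.46, -1.41 and -1.03), against 6.31% of all tested genes. All 10 had a log2 fold change below 0, against 52.1% of all tested genes, with a median of -0.32. The 10 rod genes summed to 69123 to 91848 and 59426 to 74629 CPM, and 1 of them fell, *Nrl* (-0.97). Of the rod genes, 9 of 10 had a log2 fold change below 0, with a median of -0.25. Saline replicate 3 was the highest of the 6 libraries for each of the 8 marker sums, as it was for *Lhx1*, *Onecut1*, *Onecut3* and *Calb1*. The lens sum was 29.2, 1.64 and 366 CPM in saline and at most 1.82 CPM in microbead retinas, and the lens crystallin gene *Crybb2* was at 0 counts in every microbead library. The 8 pigment epithelium genes summed to 12.2, 56.5 and 245 CPM in saline and 105 to 125 CPM in microbead retinas. The lymphatic genes *Lyve1*, *Flt4* and *Reln*, of which *Reln* is also made by retinal neurons, summed to 121 to 326 and 94.1 to 127 CPM, with 0 past the threshold of edgeR and 1 with an unadjusted p under 0.05. The part of these differences in the values of the horizontal cell genes was not tested.

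**Figure D4:**
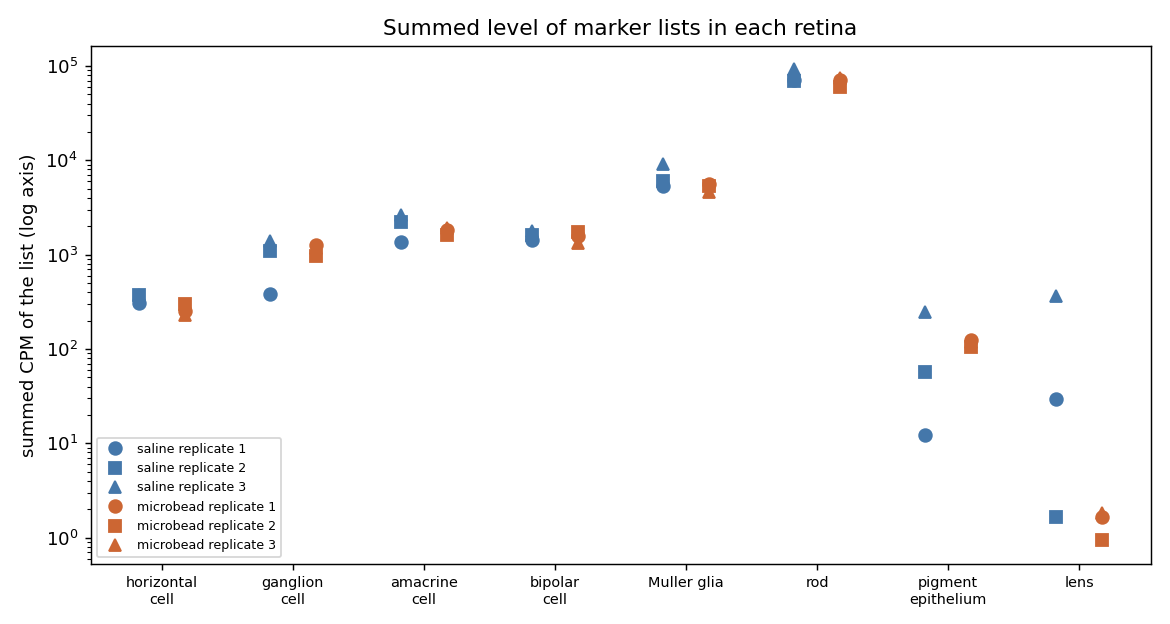
Summed CPM of each marker list in each retina on a log axis, with the symbol giving the replicate. The lens and pigment epithelium sums and the ganglion cell sum of saline replicate 1 spread most, while the horizontal cell sum lies between 228 and 373 CPM.

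Summed over the 6 members, the level was 305, 373 and 371 CPM in saline and 251, 296 and 228 CPM in microbead retinas. The means were 350 ± 38.5 and 258 ± 34.9 CPM (SD, n = 3 each), and every microbead retina lay below every saline retina, as was the case for 18.9% of single genes. *Prox1* and *Calb1*, which are shared most widely with other cells, make up most of this sum, so that it says little of the Onecut genes and *Lhx1*.

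**Figure D5:**
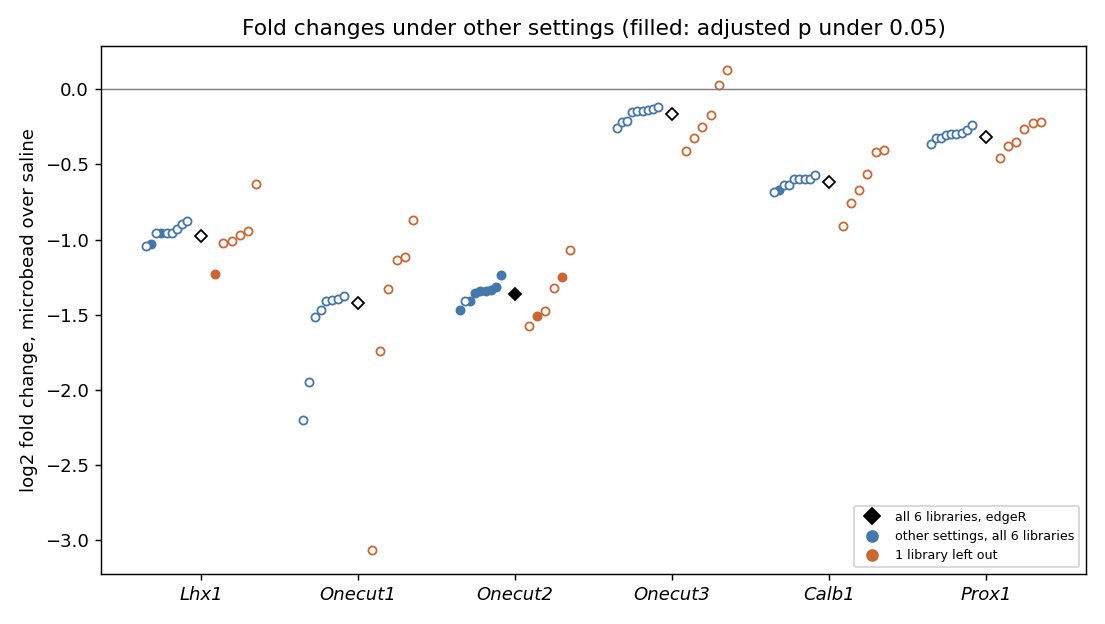
Log2 fold change of each member with all libraries (diamonds), under the 9 other settings with all libraries (blue; 8 for *Onecut1*) and with 1 library left out (orange), spread sideways in order of value and filled for an adjusted p under 0.05. Values of *Onecut3* cross 0, those of *Onecut1* spread most, and those of *Onecut2* lie between -1.57 and -1.07.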

How the data were processed

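Stranded poly(A) libraries of whole retina were read as 100-base pairs. According to the methods and the submitters' processing notes, the authors aligned reads with STAR 2.5.3a to GRCm38.p5 with GENCODE vM12, counted them with featureCounts, and deposited raw counts per gene and library. The strand setting and the treatment of reads shared by genes are not given in the sources used here. The same table holds the authors' own DESeq2 comparison (mean, fold changes, p-values and calls), which was not used.

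Groups were taken from the treatment label. Low genes were removed by filterByExpr (10 as smallest count, 15 as smallest total) and TMM factors were applied. In R 4.3.3, edgeR 4.0.16 compared microbead with saline by its quasi-likelihood test, and p-values were adjusted by Benjamini-Hochberg across the 17707 genes that remained, at a threshold of 0.05. The standard error is the absolute log2 fold change over the square root of F. CPM are counts per 1000000 of scaled library size, and 0.5 was added to counts for profile likeness. The exact permutation test is two-sided over 20 divisions of the libraries. Exon lengths, positions and shared stretches are from GENCODE vM21 on the same build, with lengths for 99.7% of tested genes. Of 24 symbols that a spreadsheet had turned into dates, 24 were restored by gene ID, among them *Sept4*. The code was tested on simulated data. Every pair of libraries in a group differed beyond sampling noise, with a chi-square of at least 20.7 per degree of freedom.

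Every member was named, with each gene of a related list past the threshold or else the 2 of greatest change, and genes named otherwise are marked. Members and lists were chosen with earlier results of these data known. Alternatives were RLE and upper-quartile scaling, leaving out mitochondrial genes, no filter, a stricter filter (10 counts in each library), limma-voom (limma 3.58.1), DESeq2 1.42.0, the replicate number as a block, each library left out, and, added after seeing the data, a GC and length offset.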

Additional observations from a re-analysis of the deposited data

How the results depend on the processing

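The number of genes past the threshold, 2261 (1143 higher, 1118 lower), was 3720 without a filter on low counts (1511 higher, 2209 lower) and 3582 with DESeq2, and ran from 46, without microbead replicate 3, to 2621, without saline replicate 1. Leaving out saline replicates 2 and 3 gave 293 and 1480, and leaving out microbead replicates 1 and 2 gave 748 and 768. Of the 6 members, 1 was past the threshold. It was 3 without a filter (*Onecut2*, *Lhx1* and *Calb1*), 2 with DESeq2 (*Onecut2* and *Lhx1*), and 0 to 2 with a library left out. Of the 29 related genes, 2 were past it, against 6 without a filter, 6 with DESeq2, and 0 to 5 with a library left out. Over all genes fitted, 11.9% were past the threshold without a filter, 20.2% with DESeq2 and 0.238% to 15.1% with a library left out. *Onecut1* could not be fitted under the stricter filter of 10 counts in each library. Libraries of the 2 groups share only a running number: their deviations from the group means correlated at -0.01, 0.13 and -0.01 over 15088 genes. With this replicate number as a block, 905 genes, 0 members and 1 related gene (*Megf10*) were past the threshold, and the adjusted p from edgeR was 0.0667 for *Onecut2*, whose log2 fold change was -1.41, and 0.0667 for *Sall3*. The sign turned only for *Onecut3*, at 0.03 without saline replicate 3 and 0.13 without microbead replicate 1, in a range of -0.41 to 0.13. Over the 6 members, *Sall3* and *Megf10*, 99 values under another setting kept their direction and side of the threshold, 14 no longer passed it and 4 newly passed it. The cause was not tested. *Onecut1* had the lowest counts of the members, with 2 to 29 in the microbead libraries.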
